A study of Homo sapiens with 4 samples.

Results

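Hsa-miR-375 is 1 of the 1733 mature miRNAs listed for every library of the series, and it was taken by its name in the deposited counts. It was chosen with its level already known to be higher in both hepatic cancer stem cell (HCSC) lines, so its values are given here as a description without a test. Small RNA was sequenced from 4 cell populations. Hep3B and Huh7 are established human hepatoma cell lines, grown from liver tumors (the HCC cells). Hep3B-C and Huh7-C are the stem-like cells that the study cultured from each of them (the HCSCs), so that Hep3B-C is paired with Hep3B and Huh7-C with Huh7. Each of the 4 conditions had 1 library and no replicates, and the 4 comparisons made here share these 4 libraries.

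MiR-375 is known as a miRNA of pancreatic islets, where it restrains insulin secretion and maintains the endocrine cell mass, and it is also found in pituitary and epithelial cells. A miRNA guides Argonaute to messenger RNAs that pair with its seed, the stretch near its 5′ end, and lowers their translation and stability. In hepatoma cells, the Hippo pathway effector YAP1 and the oncoprotein MTDH are known targets of miR-375. The mRNA libraries of the study were not analysed here.

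The mature and precursor sequences show what was counted. In the RefSeq table (build GRCh38.p14), MIR375 is a hairpin of 64 bases on the minus strand, at chr2:219001645-219001708. Its 3p arm, chr2:219001648-219001669, is the strand long known by the name without an arm, and it covers bases 40 to 61 of the hairpin. The capitals mark the mature strand in the hairpin and the seed (bases 2 to 8) in the mature miRNA.
MIR375 hairpin: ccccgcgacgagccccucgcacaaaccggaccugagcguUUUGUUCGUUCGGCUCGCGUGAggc
hsa-miR-375: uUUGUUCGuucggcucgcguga

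The counted strand has 22 bases, and a messenger RNA pairs with its seed through the letters CGAACAA. Among the 2370 mature miRNA names of the table, 0 others have the same bases 2 to 8, so miR-375 has no seed family there. Only hsa-miR-6739-3p shares bases 2 to 7, and it was not analysed here. The seed holds a CG pair, as do the seeds of 13.5% of these miRNAs. The whole strand holds 4 CG pairs, a number that 41 of them (1.73%) reach. Its GC content of 54.5% is close to the median of 52.2%. GENCODE release 29, which is also on GRCh38, lists no gene that overlaps MIR375, so the hairpin is intergenic. The nearest genes are the antisense transcript AC097468.1 at a distance of 506 bp, CFAP65 (a gene of cilia and flagella) at 1137 bp and the crystallin gene CRYBA2 at 8223 bp. The deposited counts hold a single row for the hairpin, and the 5p arm was not analysed here.

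MiR-375 was read at high counts in all 4 libraries. It had 31379 counts in Hep3B-C against 3452 in Hep3B, and 4060 counts in Huh7-C against 1573 in Huh7. The count was therefore highest in Hep3B-C and lowest in Huh7, and in both lines it was higher in the HCSCs than in the HCC cells. The depth, taken as the sum of miRNA counts, ranged from 1739278 in Hep3B to 5741567 in Huh7. MiRNA counts were 10.4% of the total reads in Hep3B and 54.1% in Huh7, with the HCSC libraries in between. A count can therefore be scaled to all reads or to miRNA reads, and the choice moves every level.

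On the scale of the study, TPM (counts per 1000000 total reads), miR-375 stood at 206 TPM in Hep3B (95% Clopper-Pearson interval 199 to 213) and at 2032 TPM in Hep3B-C (2010 to 2055). It stood at 148 TPM in Huh7 (141 to 156) and at 379 TPM in Huh7-C (367 to 391). These intervals, like all others here, cover counting error only. On this scale Hep3B-C was far above the other libraries, which followed in the order Huh7-C, Hep3B and Huh7.

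Per 1000000 miRNA counts, Hep3B had a level of 1985 (1919 to 2052) and Hep3B-C one of 5779 (5715 to 5843). Huh7 had 274 (261 to 288) and Huh7-C had 1004 (973 to 1035). Here both Hep3B-derived libraries were above both Huh7-derived ones. Hep3B and Huh7-C thus changed places between the scales, while Hep3B-C stayed the highest and Huh7 the lowest. Whether neighbours in this order differ by more than the spread between cultures cannot be told with 1 library each.

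**Figure D1:**
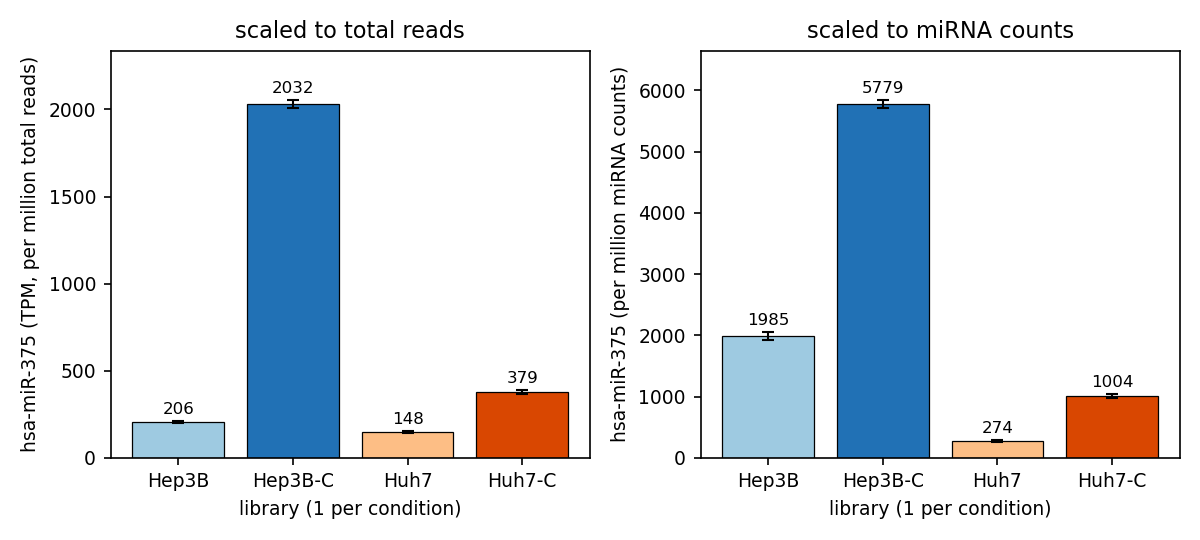
Level of hsa-miR-375 in each library, in TPM (left, per 1000000 total reads) and per 1000000 miRNA counts (right). Bars are single libraries and error bars are 95% Clopper-Pearson intervals, which cover counting error only. Hep3B-C is the highest bar in both panels, and Hep3B is below Huh7-C on the left and above it on the right.

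The rank of miR-375 within a library does not depend on the scale. It was the 44th most abundant of 674 detected miRNAs in Hep3B and the 21st of 773 in Hep3B-C. In the other line it was the 88th of 712 in Huh7 and the 39th of 664 in Huh7-C. In both lines the rank was therefore closer to the top in the HCSCs. Its share of all miRNA counts was 0.578% in Hep3B-C against 0.198% in Hep3B, and 0.100% in Huh7-C against 0.0274% in Huh7.

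In Hep3B, miR-375 stood between hsa-miR-146b-5p (3548 counts) and hsa-miR-196b (3169 counts). In Hep3B-C its neighbours were hsa-miR-30a (33017 counts) and hsa-miR-101 (29695 counts), both well known from liver. In Huh7 it lay between hsa-miR-18a (1687 counts), of the oncogenic miR-17-92 cluster, and hsa-miR-193a-5p (1240 counts). In Huh7-C it lay between hsa-miR-27b (4189 counts) and hsa-miR-100 (3876 counts). MiR-375 was thus a well expressed but not a leading miRNA. In Hep3B-C the most abundant one was hsa-miR-378, encoded within the metabolic coactivator gene PPARGC1B. In each of the other libraries it was hsa-miR-21, an oncogenic miRNA of many tumors.

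**Figure D2:**
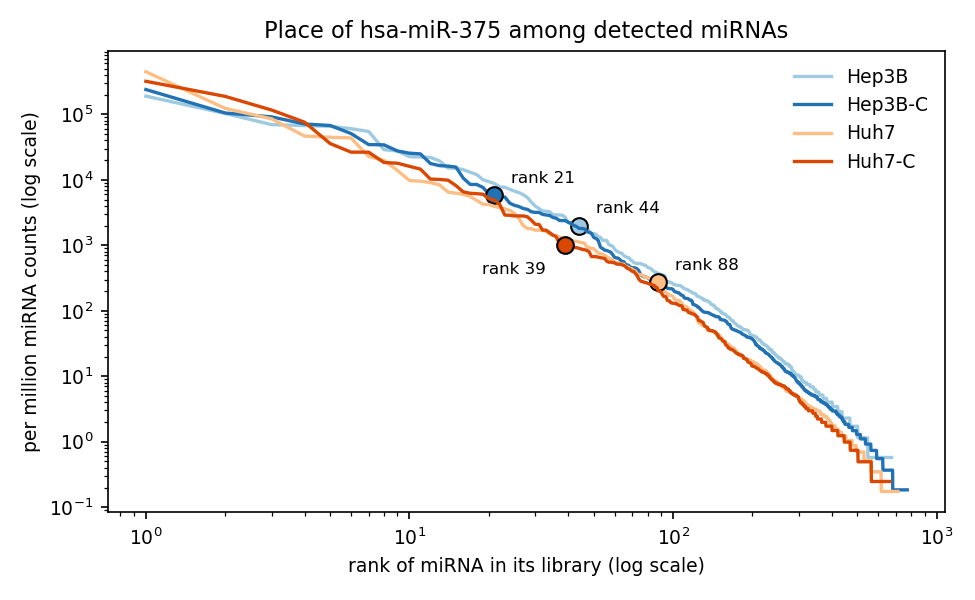
Abundance of each detected miRNA (per 1000000 miRNA counts, log scale) against its rank in the library (log scale), with 1 line for each library and a circle at hsa-miR-375. The circles lie at rank 21 in Hep3B-C, 39 in Huh7-C, 44 in Hep3B and 88 in Huh7.

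The first question of the design is how HCSCs differ from the HCC cells they came from. In the Hep3B pair, miR-375 was 9.88-fold higher in Hep3B-C on the TPM scale (counting interval 9.54 to 10.2), a log2 fold-change of 3.30. In the Huh7 pair it was 2.56-fold higher in Huh7-C (2.41 to 2.71), a log2 fold-change of 1.36. It was thus at least 2-fold higher in the HCSCs of both pairs. This contrast chose the miRNA, so the following shares are background only. In the Hep3B pair, 475 miRNAs had 10 counts or more in at least 1 of the libraries, and 66.5% of them were at least 2-fold higher in Hep3B-C. In the Huh7 pair, 431 passed this minimum and 7.42% were at least 2-fold higher in Huh7-C. The direction was common in the first pair and uncommon in the second.

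Scaled to miRNA counts, miR-375 was 2.91-fold higher in Hep3B-C (2.81 to 3.02) and 3.66-fold higher in Huh7-C (3.46 to 3.89). The log2 fold-changes were 1.54 and 1.87. On this scale, 19.4% of the miRNAs of the Hep3B pair and 15.3% of those of the Huh7 pair were at least 2-fold higher in the HCSCs. The direction for miR-375 was the same on both scales, but the order of the pairs was not. The fold-change of the Huh7 pair minus that of the Hep3B pair was -1.95 (log2) in TPM and 0.33 on miRNA counts.

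The median miRNA shows how much of each fold-change was shared. On the TPM scale the median log2 fold-change was 1.42 over the 475 miRNAs of the Hep3B pair and -0.66 over the 431 of the Huh7 pair. Relative to these medians, miR-375 was higher by 1.88 in the Hep3B pair and by 2.02 in the Huh7 pair (log2). These values do not depend on the library size, and they put the pairs side by side at about the same distance from the bulk of miRNAs. In the Hep3B pair, 55 miRNAs had a larger fold-change than miR-375, which stood at the 88.2nd percentile. In the Huh7 pair, 20 had a larger one, and miR-375 stood at the 95.1st percentile.

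**Figure D3:**
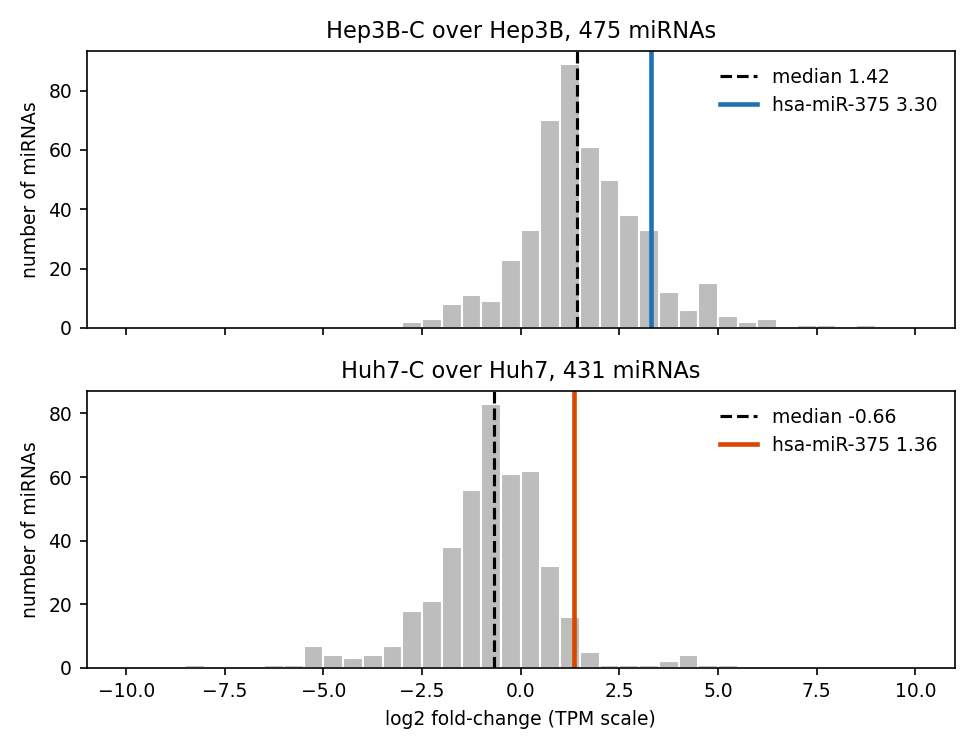
Number of miRNAs (vertical axis) by log2 fold-change on the TPM scale (horizontal axis) in the Hep3B pair (top, 475 miRNAs) and the Huh7 pair (bottom, 431 miRNAs). The dashed line is the median (1.42 and -0.66) and the coloured line is hsa-miR-375 (3.30 and 1.36), which lies to the right of the median in both.

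In both pairs at once, 359 miRNAs passed the minimum of 10 counts, and 4.18% (15 miRNAs) of these were at least 2-fold higher in both HCSC lines in TPM. On miRNA counts the share was 3.34% (12 miRNAs). MiR-375 was among them on either scale. Only 4 others had fold-changes at or above those of miR-375 in both pairs, and this count does not depend on the library size. They were hsa-miR-1269b, hsa-miR-215, hsa-miR-338-5p and hsa-miR-378, and they are named after their values were seen. All of them belong to the miRNAs that the study selected for this direction in the same libraries.

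Ratios within a library need no scale. For every 1000 counts of hsa-miR-21, miR-375 had 55.2 in Hep3B-C against 10.5 in Hep3B, and 3.14 in Huh7-C against 0.613 in Huh7. The log2 ratio of miR-375 to hsa-miR-21 was therefore higher in the HCSCs by 2.40 for Hep3B-C and by 2.36 for Huh7-C, which is nearly the same in both lines.

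For every 1000 counts of hsa-miR-378, miR-375 had 24.2 in Hep3B-C against 28.5 in Hep3B, and 5.34 in Huh7-C against 5.89 in Huh7. Its log2 ratio to hsa-miR-378 differed within the pairs by -0.24 (counting interval -0.29 to -0.19) and -0.14 (-0.22 to -0.06). The levels of these 2 miRNAs thus kept nearly the same proportion within a line and differed between the lines. Hsa-miR-378 was itself selected by the study for its direction, and it was the most abundant miRNA of Hep3B-C.

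The ratio to miRNAs of hepatocytes depended on the miRNA. For every 1000 counts of hsa-miR-192, an abundant miRNA of liver and gut, miR-375 had 81.2 in Hep3B-C against 19.3 in Hep3B, and 8.64 in Huh7-C against 2.23 in Huh7. For every 1000 counts of hsa-miR-148a, a miRNA of differentiated hepatocytes, it had 85.6 in Hep3B-C against 36.2 in Hep3B, and 13.2 in Huh7-C against 6.13 in Huh7. Against both, the difference in the log2 ratio was similar in the pairs, at 2.07 and 1.96 for hsa-miR-192 and at 1.24 and 1.11 for hsa-miR-148a. Against hsa-miR-122, the liver-specific miRNA, the pairs went in opposite directions. For every 1000 counts of hsa-miR-122, miR-375 had 209 in Hep3B-C against 8695 in Hep3B, and 28.0 in Huh7-C against 3.21 in Huh7.

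Within the same cell state, the Huh7-derived library held less miR-375 than the Hep3B-derived one. Between the HCC lines, the level in Huh7 was 1.39-fold lower than in Hep3B in TPM (counting interval 1.31 to 1.48) and 7.24-fold lower on miRNA counts (6.82 to 7.69). The first falls short of 2-fold, and 18.3% of 476 miRNAs were at least 2-fold lower in Huh7 in TPM. The second is past it, as were 47.5% of them on miRNA counts. Between the HCSC lines, Huh7-C was 5.36-fold below Hep3B-C in TPM (5.19 to 5.54) and 5.76-fold below it on miRNA counts (5.57 to 5.95). At least 2-fold lower levels in Huh7-C were found for 46.8% and 49.0% of 502 miRNAs on these scales. Relative to the median miRNA, miR-375 stood at -2.07 between the HCC lines and at -1.60 between the HCSC lines (log2). In both cell states the ratio between the lines was therefore below that of the median miRNA, and lower levels in the Huh7-derived library were common among miRNAs when scaled to miRNA counts.

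**Figure D4:**
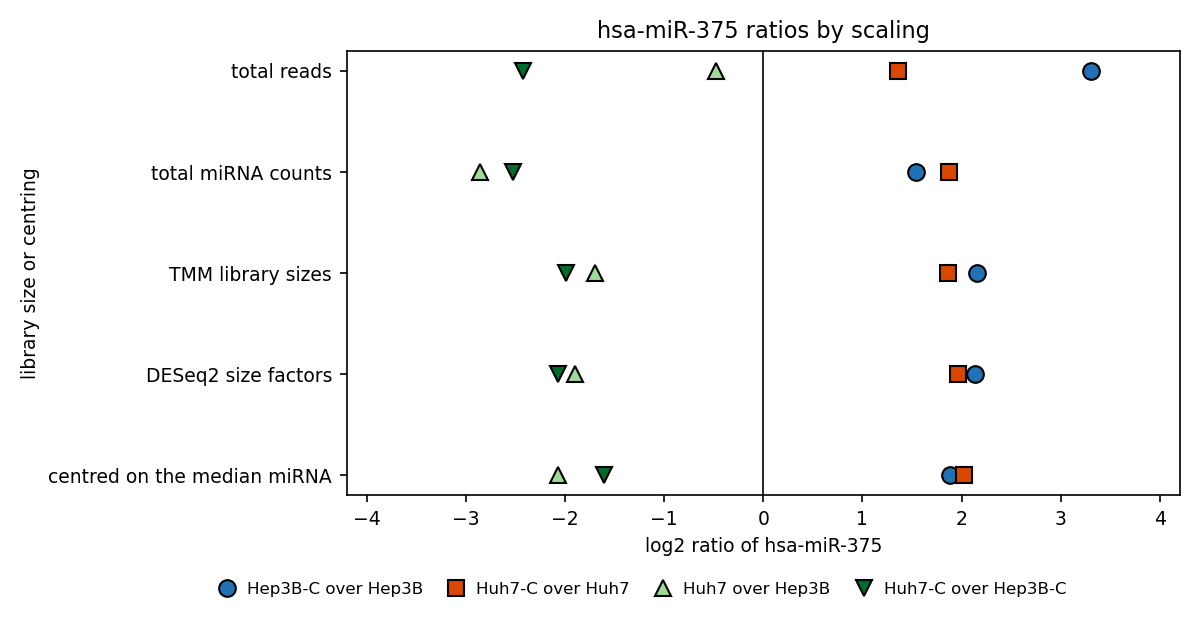
Log2 ratios of hsa-miR-375 for 4 comparisons (horizontal axis, 0 marks equal levels) under each library size and relative to the median miRNA (vertical axis). Each symbol is 1 ratio between 2 libraries. Both HCSC over HCC ratios lie to the right of 0 and both Huh7 over Hep3B ratios to the left, under every setting shown.

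The 5 miRNAs with the pattern most like that of miR-375 were found by the spread of their ratio to it. The measure is the SD, over the 4 libraries, of the log2 ratio of the miR-375 count to their own, which needs no library size. It was taken over the 264 other miRNAs with at least 10 counts in each library, whose median SD was 1.81. Their mature sequences are given because 3 of them are near copies of each other. The capitals mark the seed, and none of the seeds is that of miR-375.
hsa-miR-320c: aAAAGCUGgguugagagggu
hsa-miR-320d: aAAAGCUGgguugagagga
hsa-miR-320b: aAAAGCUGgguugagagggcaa
hsa-miR-200c: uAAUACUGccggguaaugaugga
hsa-miR-15b: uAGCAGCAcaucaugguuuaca

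Hsa-miR-320c, hsa-miR-320d and hsa-miR-320b, of a family that is made without Drosha, share their first 18 bases. Reads could be divided among them, so they are not 3 separate measurements. Their SDs were 0.42, 0.44 and 0.57. Hsa-miR-320c had 393 counts in Hep3B-C against 71 in Hep3B, and 47 in Huh7-C against 30 in Huh7, so that miR-375 had between 48.6 and 86.4 counts for each of its own. Low counts limit this likeness, since hsa-miR-320d had as few as 19 counts in a library.

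Hsa-miR-200c, of the epithelial miR-200 family (mature miRNA of MIR200C at chr12:6963742-6963764, plus strand), had an SD of 0.50. Its counts were 5085 in Hep3B-C against 606 in Hep3B, and 373 in Huh7-C against 316 in Huh7. Like miR-375 it was highest in Hep3B-C, and its log2 fold-change in TPM was 3.19 in the Hep3B pair but 0.23 in the Huh7 pair. Hsa-miR-15b, of the miR-15 and miR-16 family that restrains the cell cycle (mature miRNA of MIR15B at chr3:160404607-160404628, plus strand), had an SD of 0.53. It had 2506 counts in Hep3B-C against 403 in Hep3B and 354 in Huh7-C against 284 in Huh7, with log2 fold-changes of 2.76 and 0.31. All 5 miRNAs had smaller fold-changes than miR-375 in both pairs.

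**Figure D5:**
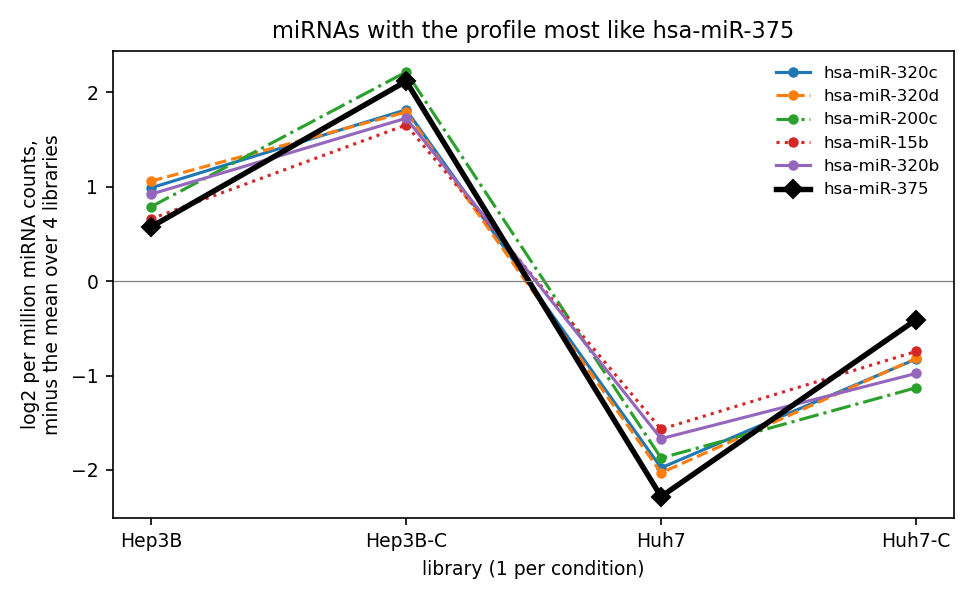
Log2 level per 1000000 miRNA counts, minus its mean over the 4 libraries (vertical axis), by library (horizontal axis), for hsa-miR-375 (black) and the 5 miRNAs with the most similar pattern. All lie above 0 in the Hep3B-derived libraries and below 0 in the Huh7-derived ones, and hsa-miR-375 is the lowest of them in Huh7 and the highest in Huh7-C.

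Other miRNAs of islet and neuroendocrine cells did not share 1 pattern with miR-375. Of the 16 on the list, 6 had no count in any library and 5 reached 100 counts in at least 1. Of the 7 with at least 10 counts in the Hep3B pair, 3 were at least 2-fold higher and 0 at least 2-fold lower in Hep3B-C in TPM, against 66.5% and 5.05% of all miRNAs. Their median log2 fold-change was 0.48, below the 1.42 of all miRNAs. On miRNA counts, 1 was higher and 4 were lower, against 19.4% and 25.1%. Of the 5 in the Huh7 pair, 1 was higher and 1 lower in Huh7-C in TPM, against 7.42% and 37.4%, and the numbers were the same on miRNA counts. Their median log2 fold-change was -0.01 in TPM, above the -0.66 of all miRNAs.

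Among them, hsa-miR-7, which is abundant in islets and neurons, stood at 21.7 TPM in Hep3B and 296 TPM in Hep3B-C, but at 412 TPM in Huh7 and 408 TPM in Huh7-C. In TPM it was thus higher in Hep3B-C but about level in Huh7-C, whereas on miRNA counts it was also higher in Huh7-C (1082 per 1000000) than in Huh7 (762). Hsa-miR-184, a miRNA that miR-375 is known to be linked with in beta cells, stood at 17.7 TPM in Hep3B-C against 12.8 TPM in Hep3B, and at 4.57 TPM in Huh7-C against 1.98 TPM in Huh7. It was higher in both HCSC lines in TPM, and lower in Hep3B-C than in Hep3B on miRNA counts (123 and 50.5 per 1000000). Hsa-miR-9, a neuronal miRNA, stood at 9.18, 54.7, 919 and 1059 TPM in Hep3B, Hep3B-C, Huh7 and Huh7-C, with its higher levels in the line where miR-375 was lower. Hsa-miR-95 had 423 counts in Hep3B and 438 in Hep3B-C but 0 in Huh7 and Huh7-C. Hsa-miR-218, known from motor neurons, had 142 counts in Hep3B-C and 158 in Hep3B, against 0 in Huh7-C and 1 in Huh7. Between the lines, hsa-miR-95, hsa-miR-184 and hsa-miR-218 were lower in Huh7-derived libraries, as miR-375 was. Hsa-miR-7 and hsa-miR-9 were higher there. Among all miRNAs, 47.5% (HCC lines) and 49.0% (HCSC lines) were at least 2-fold lower there on miRNA counts. In TPM these shares were 18.3% and 46.8%.

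MiRNAs of epithelial cells were next compared, since miR-375 is also found there. Of the 12 with at least 10 counts in the Hep3B pair, 10 were at least 2-fold higher and 0 at least 2-fold lower in Hep3B-C in TPM, against 66.5% and 5.05% of all miRNAs. Their median log2 fold-change was 1.62, close to the 1.42 of all miRNAs. In the Huh7 pair, 0 of 7 were higher and 3 were lower in Huh7-C, against 7.42% and 37.4%, with a median of -0.61 beside -0.66 for all. On miRNA counts, 3 were higher and 1 lower in the Hep3B pair, against 19.4% and 25.1%. In the Huh7 pair, 0 were higher and 1 lower on this scale, against 15.3% and 24.4%. Both arms of hsa-miR-200b had over 100 counts in Hep3B and Hep3B-C and at most 2 in Huh7 and Huh7-C, whereas hsa-miR-182 was abundant in all 4 libraries, with 106719 to 496361 counts. In neither list was a member with at least 10 counts in both pairs at least 2-fold higher in both HCSC lines. Only 4.18% (TPM) and 3.34% (miRNA counts) of 359 miRNAs were, so none is near that share for lists this short.

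The labelled liver origin was checked by miRNAs of hepatocytes. All 10 on the list had at least 100 counts in at least 1 library, and together they made up between 161990 (Hep3B) and 260987 (Huh7) per 1000000 miRNA counts. Hsa-miR-122, the most specific of them, had 397 counts in Hep3B and between 144814 and 489443 in the other libraries. Hsa-miR-192 (102967 per 1000000) and hsa-miR-148a (54791) made up most of the Hep3B sum. The list was not uniform, since hsa-miR-885-5p and hsa-miR-885-3p had 2 and 3 counts in Huh7 and 0 in Huh7-C. In TPM, 9 of the 10 listed were at least 2-fold higher and 0 lower in Hep3B-C, against 66.5% and 5.05% of all miRNAs. In Huh7-C, 0 of 8 were at least 2-fold higher and 4 lower, against 7.42% and 37.4%. On miRNA counts, 3 were higher and 1 lower in Hep3B-C, against 19.4% and 25.1%, and 0 were higher and 4 lower in Huh7-C, against 15.3% and 24.4%. With so few of all miRNAs at least 2-fold higher in Huh7-C, 0 of 8 is near the background and is no result about this list.

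Markers of other cells were low. MiRNAs of blood cells (8 listed, 3 without a count) summed to 142 per 1000000 miRNA counts in Huh7 and to between 1.84 and 6.90 in the other libraries. In Huh7 nearly all of this was hsa-miR-451, a miRNA of red cells, with 773 counts against 2 in Huh7-C. MiR-375 had its lowest level in Huh7, and the part of such RNA in its value was not tested. MiRNAs of fibroblasts and smooth muscle (7 listed, 1 without a count) summed to 316 in Hep3B-C, 246 in Hep3B, 4.94 in Huh7-C and 9.58 in Huh7, mostly as hsa-miR-143. Hsa-miR-145, its partner in smooth muscle, had 5 counts in Hep3B-C and 0 in the other libraries. In every library these sums were below the level of miR-375 on the same scale. The values were closest for blood cells in Huh7, with 142 beside 274. The miR-375 content of such cells is not known here, and their part in its level was not tested.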

How the data were processed

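Small RNA from 4 cell populations was sequenced on an Illumina Genome Analyzer II, with 1 library per condition. Contaminants, redundant reads and reads under 18 nt were filtered out by the authors, who aligned clean reads to NCBI Build 36 of the human genome with SOAP, set aside other small RNA classes and searched what remained against miRBase release 17. The authors deposited raw read counts per mature miRNA, without normalization.

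TPM used the total reads given by the study as library sizes. Alternatives were total miRNA counts, TMM (edgeR 4.0.16) and median-of-ratios size factors (DESeq2 1.42.0, R 4.3.3), both over the 443 miRNAs that reached 10 counts in 2 or more libraries. Intervals of levels are 95% Clopper-Pearson. Intervals of folds come from the exact binomial distribution of a count given the sum of the pair, and those of changes in a ratio from a normal approximation. For fold-changes over all miRNAs, 0.5 was added to each count. With no replicates and a miRNA chosen by its change, no test was made. A single count equalled 0.0596 TPM (Hep3B) to 0.0941 TPM (Huh7).

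The miRNA, the lists and the alternatives were chosen with earlier results of these data known. Named miRNAs were the 5 most alike, list members with at least 100 counts in a library, the most abundant and the neighbours in rank. Hsa-miR-145, hsa-miR-1269b, hsa-miR-215, hsa-miR-320a, hsa-miR-338-5p, hsa-miR-379 and hsa-miR-3131 fall outside this rule and were named after their values were seen. Sequences come from RefSeq (6 of 6 names matched, after unsuffixed names were assigned to an arm). The fold and its interval were tried on simulated counts with counting error only. These hold no spread between cultures, so they do not show that the intervals cover it. Python 3.11.15 with numpy 2.4.6, pandas 2.3.3 and scipy 1.17.1 was used.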

Additional observations from a re-analysis of the deposited data

Results flagged for a closer look

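Hsa-miR-122 had a log2 fold-change of 8.68 in the Hep3B pair and of -1.77 in the Huh7 pair (TPM), higher in one stem cell line and lower in the other. Hsa-miR-194*, the other arm of a liver miRNA, did so with 2.85 and -0.80. Both kept their directions on miRNA counts. Opposite directions were not peculiar to them. In TPM the median miRNA had them too, at 1.42 and -0.66, but not on miRNA counts (-0.34 and -0.15). Hsa-miR-379, which is on none of the lists, had 3.46 and -4.86 in TPM and 1.69 and -4.34 on miRNA counts. The share of all miRNAs with opposite directions was not computed, and the difference between the pairs was not tested for any of them. MiR-375 is not among the results flagged in this way.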

How the results depend on the processing

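With 1 library per condition, no difference has a replicate check, and the counts limit each value by counting error only. The HCSCs were set against their parent line by fold-changes alone, and no model with the line as a replicate block was fitted, since this contrast chose miR-375. In the order total miRNA counts, TMM library sizes, DESeq2 size factors and relative to the median miRNA (the last chosen after seeing the data), the log2 fold-change of miR-375 was 1.54, 2.15, 2.14 and 1.88 in the Hep3B pair (3.30 with total reads) and 1.87, 1.86, 1.97 and 2.02 in the Huh7 pair (1.36). The log2 ratio of Huh7 over Hep3B was -2.86, -1.70, -1.89 and -2.07 (-0.47 with total reads), and that of Huh7-C over Hep3B-C was -2.53, -1.99, -2.07 and -1.60 (-2.42). All 4 ratios kept their direction under these settings. The Huh7 pair minus the Hep3B pair was -1.95 with total reads, -0.29 with TMM and -0.17 with DESeq2, and it was reversed with total miRNA counts (0.33) and relative to the median (0.14). Which pair shows the larger fold-change therefore depends on the library size. The share of miRNAs at least 2-fold higher was 19.4%, 30.3% and 29.9% in the Hep3B pair (66.5% with total reads) and 15.3%, 14.8% and 17.4% in the Huh7 pair (7.42%) for the first 3 settings. With at least 1 count in place of 10, it was 14.5% in the Huh7 pair, where the percentile of miR-375 was 87.8 in place of 95.1. With at least 100 counts its percentile in the Hep3B pair was 91.4. With at least 100 counts in each library, the most similar pattern was that of hsa-miR-200c (SD 0.50) in place of hsa-miR-320c (0.42), which has fewer counts. The other 5 recomputed values stayed within their interval or within 1.5 times the value reported.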

Other observations

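The miRNA gene nearest to MIR375 in RefSeq, MIR3131, lies 57.0 kb away on the same strand. Hsa-miR-3131 had 190 counts in Hep3B and 510 in Hep3B-C, but 1 count in Huh7 and 1 in Huh7-C, whereas miR-375 had at least 1573 counts in every library. Hsa-miR-3131 was taken for its place in the genome, but after its values were seen, and they were not tested.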
